A study of Mus musculus with 6 samples.

Results

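The genes described here are those of the proteasome and of the enzymes that attach or remove ubiquitin, measured in mouse N2A neuroblastoma cells after knockdown of *Kap1* (*Trim28*), a chromatin co-repressor. Members were taken by name from the deposited array table. Every transcript cluster, the array's unit for a gene, was kept if the platform gave it 1 symbol beginning with Psma to Psme, Ube, Usp or Cul followed by a digit, or Fbxo, Fbxw or Fbxl. This gave 85 transcript clusters of 76 genes, out of 6951 transcript clusters and 5322 named genes on the table. The 76 genes were 20 proteasome subunits and chaperones, 12 E2 enzymes, the ligases *Ube3b* and *Ube4a*, 14 ubiquitin-specific proteases (USPs), 4 cullins and 24 F-box genes. Where a gene had more than 1 transcript cluster, that with the highest mean was used.

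The knockdown cells (*Kap1* knockdown, 3 arrays) had been transfected with 1.5 µg of the shA *Kap1* shRNA plasmid, and the control cells (scrambled control, 3 arrays) with a scrambled shRNA plasmid. Both groups also received 300 ng of the pTK-Hyg resistance plasmid. Hygromycin B was added after 3 days, and RNA was taken from the resistant cells after another 7 days. N2A is an established mouse neuroblastoma line, so both groups were selected cells of the same line. The labels call the RNA samples triplicates without saying whether each came from its own transfection, so a p-value here speaks only for the spread among these 6 RNA samples, which may be technical. In such bulk RNA, fewer cells of a type and less RNA per cell cannot be told apart.

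Ubiquitin is a small protein that cells attach to other proteins. An E1 enzyme activates it, an E2 enzyme carries it, and an E3 ligase places it on the substrate. Cullins are scaffolds of the largest family of E3 ligases, and F-box proteins are the subunits that pick substrates for the cullin-1 and cullin-7 complexes. Chains of ubiquitin mark a protein for the proteasome, a barrel whose alpha and beta rings form the 20S core that cuts proteins and whose 19S cap binds the chain, unfolds the substrate and feeds it in. Deubiquitinases, of which the USPs are the largest family, remove ubiquitin again. Neurons and tumour cells both rely on this system for protein quality control and for timed removal of cell cycle regulators.

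The sequence behind the comparison is the hairpin oligonucleotide of the shA plasmid, which the knockdown cells received and the control cells did not. No other *Kap1* hairpin was used on these arrays. Loss of *Kap1*, effects of the hairpin on other genes and differences between the selected pools therefore cannot be told apart. Capitals mark the arms of 17 bases that pair with each other, with 11 bases between them.
shA forward oligonucleotide: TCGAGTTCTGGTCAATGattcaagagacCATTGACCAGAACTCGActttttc

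*Trim28*, the gene this hairpin targets, had intensities of 866, 861 and 936 on the knockdown arrays, against 3377, 3443 and 3267 on the control arrays. The mean was 888 ± 41.9 in the knockdown and 3362 ± 88.9 in the control (SD, n = 3 each). The knockdown mean was 26.4% of the control mean, with a log2 fold change of -1.92 (SE, the standard error, 0.054, limma adjusted p = 1.30e-08). The 3 knockdown arrays lay far below the 3 control arrays. Of the neuronal markers checked, 7 of 11 were on the table. *Mycn* (log2 fold change -1.24) and *Phox2a* (-0.99), transcription factors of neuroblastoma and autonomic neurons, fell, and *Stmn2*, *Hand2*, *Tubb3*, *Gap43* and *Elavl4* did not pass the fold limit. Of 7 glial and Schwann cell markers 2 were on the table, *Erbb3* (0.82) and *Egr2* (0.75), and both rose. Of the fibroblast markers 1 of 6 was on the table, of the immune markers 2 of 4 and of the endothelial markers 1 of 3, and none of these passed the fold limit. The part of these markers in the results below was not tested. Array medians were 507 to 528 in the knockdown and 505 to 553 in the control.

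Among the 76 genes more were higher than lower in the knockdown, but by small steps. A gene was counted as changed where its adjusted p was no higher than 0.05 and its fold no smaller than 1.4, a log2 fold change of 0.485 in size. By this rule 11 of the 76 genes rose and 8 fell, which is 25% of the members. Of all the named genes 32.3% changed, 15.8% rising and 16.5% falling. Without the fold limit 49 members were higher and 27 lower, whereas 50.3% of all named genes were higher. The median log2 fold change was 0.24 over the members and 0.14 over the other named genes, and the median size without sign was 0.32 over the members and 0.38 over the others. Of the members *Fbxl7* alone changed by more than 2-fold.

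The table itself limits how these counts can be read. Every transcript cluster on it passed the adjusted p (the largest was 0.0365), the smallest log2 fold change on it was 0.118 in size, and the knockdown and control arrays did not overlap for any member or for any named gene (100%). It therefore holds genes that already differed in this comparison, and a gene's place on it, its adjusted p and its lack of overlap are no separate evidence. Nothing is said here about proteasome or ubiquitin genes not on it. After each array was set to a common median, 14 members rose and 6 fell, and after quantile normalization 14 rose and 7 fell. Control replicate 3 had the lowest control intensity for 53 of the 76 members and for 10 of the 11 that rose, against 62.8% of all transcript clusters. Without it 8 members rose and 10 fell.

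The proteasome genes were mostly higher in the knockdown. Of the 20 genes 15 were higher and 5 lower, with a median log2 fold change of 0.25. By the rule only *Psmc2*, *Psmd6* and *Psmd10* rose and *Psmb9* fell. That is 20% changed, against 32.3% of all named genes, of which 50.3% were higher. *Psmc2*, an ATPase of the ring that unfolds substrates, had 935, 892 and 908 in the knockdown, against 626, 626 and 623 in the control. The control arrays were almost equal and the fold change was 0.54 on the log2 scale (SE 0.048, adjusted p = 7.57e-06). *Psmd6*, a subunit of the 19S lid, had 1406, 1410 and 1473 in the knockdown, against 1059, 998 and 910 in the control. The log2 difference was 0.53 (SE 0.064, adjusted p = 5.25e-05), with control replicate 3 the lowest array. *Psmd10*, also known as gankyrin, is a chaperone that helps to assemble the base of the 19S cap. It had 1345, 1396 and 1360 in the knockdown, against 994, 964 and 923 in the control, a log2 fold change of 0.51 (SE 0.051). Without control replicate 3 *Psmd6* (0.48) and *Psmd10* (0.48) came just under the fold limit.

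The only proteasome gene on the table that fell was *Psmb9*, the beta subunit that takes the place of *Psmb6* in the immunoproteasome of interferon-treated cells. *Psmb9* had 332, 280 and 333 in the knockdown, against 450, 435 and 456 in the control. The log2 fold change was -0.51 (SE 0.072, adjusted p = 0.000153), and it rested in part on knockdown replicate 2, the lowest array. Without that array it was -0.43, and after median centring -0.48, both short of the fold limit. *Psme1* and *Psme2*, the subunits of the 11S activator that interferon also induces, stood on the other side of the control. *Psme1* had 2634, 2716 and 2853 in the knockdown, against 2090, 2188 and 2001 in the control. *Psme2* had 5119, 5497 and 4795 in the knockdown, against 4365, 4310 and 3874 in the control. Their log2 fold changes of 0.39 and 0.30 did not pass the fold limit.

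**Figure D1:**
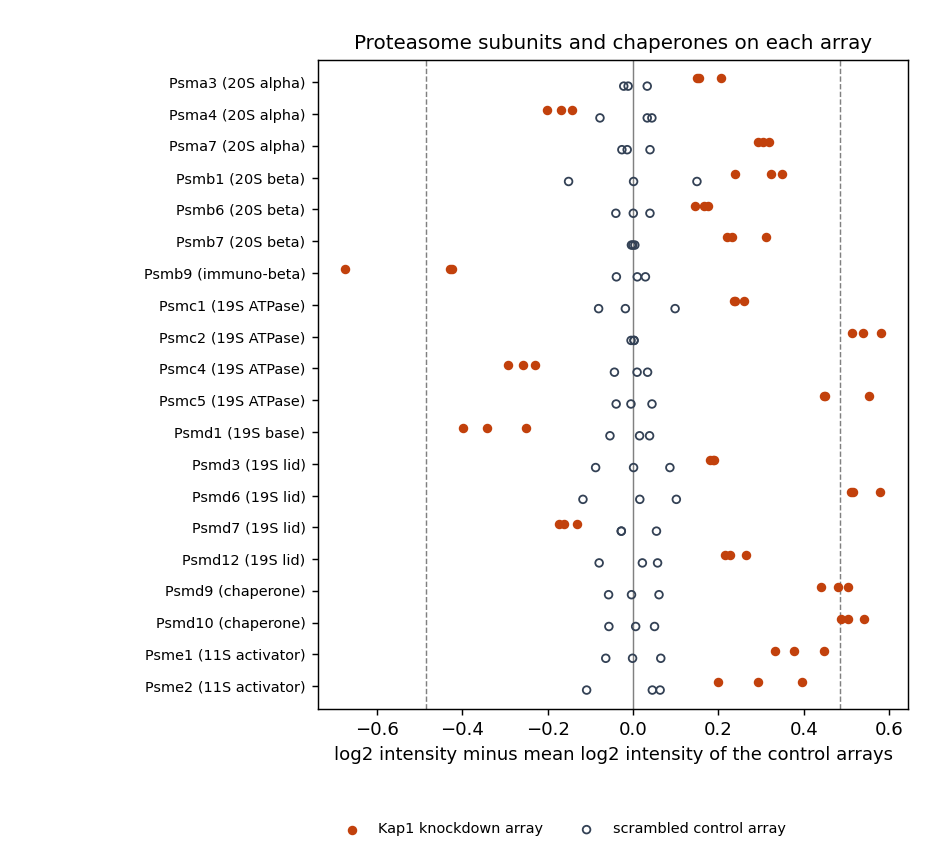
Each row is 1 of the 20 proteasome genes with its place in the complex. Points give the log2 intensity of each array minus the mean log2 intensity of the control arrays, filled for the 3 knockdown arrays and open for the 3 scrambled control arrays, with dashed lines at the 1.4-fold limit. In 15 rows the knockdown arrays lie to the right of the control arrays and in 5 to the left, and *Psmc2*, *Psmd6*, *Psmd10* and *Psmb9* have a mean past a dashed line.

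Described by their place in the complex, the 3 beta subunits of the 20S core other than *Psmb9*, both assembly chaperones and both activator subunits were higher, and the alpha subunits, ATPases and lid subunits lay on both sides. In the 20S core *Psma3* (0.17), *Psma7* (0.31), *Psmb1* (0.30), *Psmb6* (0.16) and *Psmb7* (0.25) were higher and *Psma4* (-0.17) was lower, none past the limit. *Psmb6* and *Psmb7* carry peptide-cutting sites of the core. Of the 4 ATPases of the 19S base, *Psmc1* (0.24), *Psmc2* and *Psmc5* were higher and *Psmc4* (-0.26) was lower. *Psmc5* had 866, 868 and 932 in the knockdown, against 633, 655 and 618 in the control. Its log2 fold change of 0.48 lay just outside the fold limit and passed it after median centring (0.51). *Psmd1*, the large scaffold of the base, had 2752, 2860 and 3048 in the knockdown, against 3724, 3664 and 3492 in the control, a log2 fold change of -0.33. In the lid *Psmd3* (0.19) and *Psmd12* (0.24) were higher with *Psmd6*, and *Psmd7* (-0.16) was lower. The assembly chaperone *Psmd9* had 311, 306 and 298 in the knockdown, against 229, 211 and 219 in the control. Its log2 fold change of 0.47 was also just outside the limit and passed it after median centring (0.50).

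The promoters of proteasome genes are known to hold antioxidant response elements, through which the transcription factor NRF1 (*Nfe2l1*) raises proteasome genes together when proteasome activity is short. The core of this element, TGACNNNGC, was searched on both strands of RefSeq promoters of GRCm38.p6, from 250 bases before to 50 after each start site. Promoters were found for 55 of the 76 members, and 11 of their 67 promoters (16.4%) held a match, against 12.4% of all 32851 promoters. For 16 proteasome genes 3 of 18 promoters held it, those of *Psmb6*, *Psmd9* and *Psmd12*, all higher in the knockdown but short of the fold limit. Of all 20 proteasome genes 15 were higher, and none of the changed ones held a match. Of the other members with a match, *Ube2e2*, *Ube3b*, *Usp32*, *Fbxl20* and *Fbxo31* (on the cluster used) were higher. *Cul5*, *Fbxo11* and *Ube2q2* were lower. The 3 proteasome matches, in capitals with up to 15 bases on each side, are shown because they are the windows where such a shared element could lie. In *Psmd12* the match reads on the other strand.
Psmb6, chr11:70525333-70525371, plus strand: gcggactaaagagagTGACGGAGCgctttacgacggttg
Psmd9, chr5:123228144-123228182, plus strand: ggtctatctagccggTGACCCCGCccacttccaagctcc
Psmd12, chr11:107479278-107479304, plus strand: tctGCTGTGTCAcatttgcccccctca
The matches began 9, 31 and 247 bases before the start sites of *Psmb6*, *Psmd9* and *Psmd12*. *Nfe2l1* itself had 1440, 1421 and 1477 in the knockdown, against 1788, 1652 and 1675 in the control, a log2 fold change of -0.24 that did not pass the fold limit. A match of letters is a description of the promoter and says nothing of binding.

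The E2 enzymes were split. Of 12 genes 7 were higher and 5 lower, and *Ube2e2* and *Ube2o* rose while *Ube2v2* fell. That is 25% changed, against 32.3% of all named genes. *Ube2e2* had 961, 990 and 1027 in the knockdown, against 669, 616 and 660 in the control. With a log2 fold change of 0.61 (SE 0.055, adjusted p = 8.66e-06) it had the largest difference of the E2 genes. Its neighbour and close relative *Ube2e1* was higher by less, with 671, 657 and 649 in the knockdown, against 591, 518 and 528 in the control (log2 fold change 0.27). *Ube2o*, a large enzyme that acts as E2 and E3 together, had 975, 1042 and 1056 in the knockdown, against 739, 746 and 683 in the control. It rose by 0.50 on the log2 scale (SE 0.058) and missed the fold limit without knockdown replicate 3 (0.48) or control replicate 3 (0.46).

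*Ube2v2* codes for an E2-like protein without a catalytic cysteine that partners *Ube2n* to build lysine-63 chains in DNA damage tolerance. It had 382, 449 and 385 in the knockdown, against 644, 519 and 569 in the control. The log2 fold change was -0.51 (SE 0.090, adjusted p = 0.000560), on spread-out arrays in both groups. The call was lost without knockdown replicate 1 (-0.47), knockdown replicate 3 (-0.47) or control replicate 1 (-0.43), after median centring (-0.48) and after quantile normalization (-0.47). *Ube2v2* was also the only member among the 244 genes that the study lists as shared targets of *Paupar* and KAP1. That list was chosen in part on these arrays, as genes that also changed after earlier *Paupar* knockdown. The share of all named genes on it was not counted, so nothing about the members is read from this.

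The remaining E2 genes did not pass the limit. *Ube2d1* (-0.26), *Ube2d2a* (0.17) and *Ube2d3* (-0.16), which serve many E3 ligases, lay on both sides. *Ube2k* (0.42), which builds lysine-48 chains, *Ube2g2* (0.28), an E2 of endoplasmic reticulum degradation, and *Ube2l6* (0.28), the E2 for the ubiquitin-like protein ISG15, were higher. *Ube2s*, which extends chains for the anaphase-promoting complex, had 2620, 2634 and 2511 in the knockdown, against 3140, 3366 and 3242 in the control (-0.33). *Ube2q2* was lower by 0.43 on the log2 scale, with knockdown replicate 1, at 282, the lowest array.

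Of the ligases in the set, 1 rose and 1 fell. That is 100% changed, against 32.3% of all named genes, but with so few genes the share says little. *Ube3b*, a HECT ligase, had 464, 513 and 486 in the knockdown, against 346, 291 and 284 in the control. The log2 fold change was 0.67 (SE 0.080, adjusted p = 5.05e-05). *Ube4a*, a U-box ligase that lengthens chains, had 738, 777 and 777 in the knockdown, against 1167, 1151 and 1049 in the control. Its log2 fold change was -0.55 (SE 0.058, adjusted p = 2.32e-05), and both genes kept their call when any array was left out.

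Among the 14 USPs 8 were higher and 6 lower, and *Usp30* rose while *Usp4*, *Usp19* and *Usp51* fell. That is 28.6% changed, against 32.3% of all named genes. *Usp30* sits on the outer mitochondrial membrane and opposes the ubiquitin marks that lead to mitophagy. It had 871, 923 and 923 in the knockdown, against 644, 585 and 501 in the control, a log2 fold change of 0.66 (SE 0.085, adjusted p = 8.68e-05). The control arrays spread more widely than the knockdown arrays. *Usp4* had 956, 938 and 1009 in the knockdown, against 1568, 1559 and 1472 in the control. At 63.1% of the control mean it had the largest fall of the USPs, with a log2 fold change of -0.66 (SE 0.054). *Usp19*, a USP with a form anchored in the endoplasmic reticulum, had 523, 568 and 544 in the knockdown, against 834, 862 and 834 in the control. The log2 difference was -0.63 (SE 0.052), close to that of *Usp4*. *Usp51*, which acts on histone H2A, had 397, 423 and 400 in the knockdown, against 702, 625 and 540 in the control, a log2 fold change of -0.61 (SE 0.087).

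The other USPs had smaller differences. *Usp14*, bound to the 19S cap, where it trims chains, had 2131, 2107 and 2183 in the knockdown, against 1772, 1753 and 1642 in the control (log2 fold change 0.31). The histone deubiquitinases *Usp3* (0.31), *Usp21* (0.30) and *Usp22* (0.22, a subunit of the SAGA complex) were higher, unlike *Usp51*. *Usp18*, which removes ISG15 rather than ubiquitin, was higher by 0.17. *Usp1*, which acts on FANCD2 and PCNA in DNA repair, had 635, 675 and 612 in the knockdown, against 847, 797 and 751 in the control (-0.32). *Usp31* (-0.48) lay just outside the limit, *Usp54* (0.45) and *Usp32* (0.22) were higher and *Usp47* (-0.22) was lower.

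Of the 4 cullins *Cul4b* fell and none rose, so 25% changed, against 32.3% of all named genes. *Cul4b*, the X-linked scaffold that joins substrates through *Ddb1*, had 515, 497 and 533 in the knockdown, against 826, 717 and 682 in the control. The log2 fold change was -0.52 (SE 0.074, adjusted p = 0.000147), and -0.44, under the limit, without control replicate 1, the highest array. *Cul5*, the scaffold for SOCS-box proteins, had 750, 778 and 779 in the knockdown, against 1058, 1036 and 921 in the control (-0.38). *Cul7* (-0.23) was also lower, and *Cul2* (0.37), the scaffold of the VHL ligase, was higher.

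The F-box genes held both the largest rise and the largest fall of the set. Of 24 genes 17 were higher and 7 lower, and *Fbxo36*, *Fbxo16*, *Fbxo38* and *Fbxw8* rose while *Fbxl7* fell. That is 20.8% changed, against 32.3% of all named genes. *Fbxl7* had 199, 183 and 222 in the knockdown, against 577, 561 and 599 in the control. At 34.8% of the control mean, with a log2 fold change of -1.53 (SE 0.072, adjusted p = 1.34e-07), it was the only member past 2-fold. A second *Fbxl7* transcript cluster had 74, 104 and 83 in the knockdown, against 187, 170 and 153 in the control (-0.98), so the gene fell on both. *Fbxo36* had 821, 913 and 882 in the knockdown, against 468, 463 and 427 in the control, 193% of the control mean (log2 fold change 0.95, SE 0.061). *Fbxo16* had 308, 321 and 293 in the knockdown, against 193, 177 and 157 in the control (0.81, SE 0.077). The arrays of the groups were well apart for all of these.

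*Fbxo38* had 822, 814 and 814 in the knockdown, against 567, 592 and 512 in the control, a log2 fold change of 0.55 (SE 0.061). *Fbxw8* codes for the substrate subunit of the cullin-7 ligase. It had 1235, 1270 and 1285 in the knockdown, against 894, 945 and 848 in the control, a log2 fold change of 0.50 (SE 0.056). It fell short of the limit without control replicate 3 (0.46) and, narrowly, without knockdown replicate 3 (0.485), and *Cul7*, its scaffold, had a difference of the other sign. All 5 *Fbxw* genes were higher (0.21 to 0.50), among them *Fbxw11*, a beta-TrCP gene (0.21). The *Fbxo* genes were higher in 10 of 15 cases. *Fbxo2* (0.48) and *Fbxo6* (0.32), which bind glycoproteins, were higher and lie close together, and *Fbxo2* was just outside the limit. *Fbxo30* (-0.48) was just outside it on the lower side. *Fbxl5* (0.39), the iron-sensing subunit that marks IRP2, *Fbxo32* (0.42), known as atrogin-1 in muscle, and *Fbxl20* (0.28) were higher. *Fbxo11* (-0.38), whose substrates include BCL6, *Fbxl6* (-0.24), *Fbxo39* (-0.36), *Fbxo46* (-0.23) and *Fbxo9* (-0.19) were lower.

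**Figure D2:**
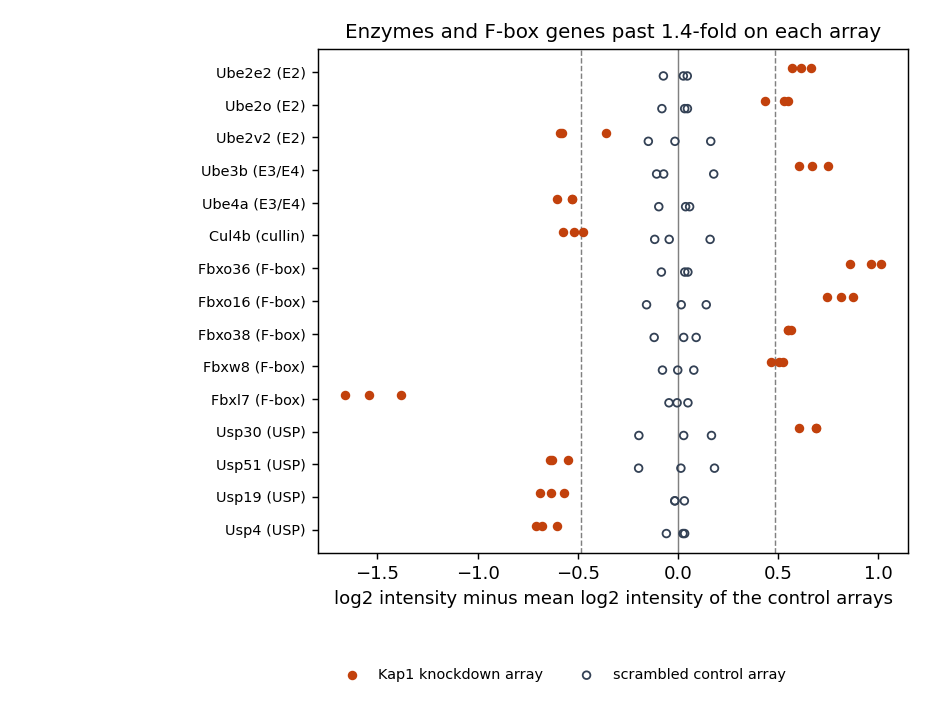
Each row is 1 of the 15 changed genes outside the proteasome, with its family. Points give the log2 intensity of each array minus the mean log2 intensity of the control arrays, filled for the 3 knockdown arrays and open for the 3 scrambled control arrays, with dashed lines at the 1.4-fold limit. *Fbxl7*, with a log2 fold change of -1.53, lies farthest from its control arrays, and *Fbxo36* (0.95) is farthest on the other side.

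Many members stood on the same side as the other genes of their chromosome, though not on every chromosome. Chromosomes were those of each gene's RefSeq record. Where each transcript cluster itself maps was not checked, so a cluster that reads a related copy elsewhere would be placed wrongly. Of the 76 members 59 (77.6%) lay on the side of zero of the median of the other named genes on their chromosome, against 66.1% of 5316 named genes. For the named genes, members among them, the median included the gene itself, so the shares are not counted alike. On chromosome 5 all 7 members were higher and 4 rose (*Ube3b*, *Usp30*, *Psmc2* and *Fbxw8*), where 87.0% of the 401 other named genes were higher, with a median log2 fold change of 0.36. On chromosome 14 all 7 members were higher and *Fbxo16*, *Ube2e2* and *Psmd6* rose, where 68.3% of the others were higher. On chromosome 18 all 4 were higher, as were 80.1% of the others. On chromosome 9, 7 of 8 members were lower and *Usp4*, *Usp19* and *Ube4a* fell, where 75.7% of the others were lower with a median of -0.33. On chromosome 7 all 5 members were lower, as were 76.6% of the others. These shares of the others have no fold limit. With the fold limit 15.8% of all named genes rose and 16.5% fell, shares that were not counted by chromosome. On 7 of 19 chromosomes (1, 3, 8, 10, 15, 16 and 19), with 15 members between them, the members' median had the other sign. Chromosomes 3, 16 and 19 held 1 member each. Chromosome 15 had no side, since 50% of its other named genes were higher, with a median of 0.0053. On chromosome 1 it was 0.30, against -0.23 for the other named genes, and on chromosome 10 it was -0.26, against 0.24. On chromosome 8 it was 0.27, against -0.27 for the others. *Ube2v2*, the only member on chromosome 16, was at -0.51, against a median of 0.21 for the others there.

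With the median of the other named genes of its chromosome taken from each fold change, 10 members rose and 6 fell, and only 5 of the 19 changed genes stayed past the limit on their side, *Fbxl7*, *Fbxo36*, *Fbxo16*, *Psmd10* and *Ube2v2*. *Usp4* then stood at -0.34, *Usp19* at -0.30, *Usp30* at 0.29, *Ube3b* at 0.30 and *Psmc2* at 0.17. *Usp3*, the only member on chromosome 9 that was higher, moved to 0.64, and *Psmb1*, the only higher member on chromosome 17, to 0.60. *Fbxo32* on chromosome 15 moved to 0.56, but the median there was unsteady. It was -0.14 with *Fbxo32* left out and 0.0053 with *Fbxl7* left out. Since the table was selected on this comparison, the medians do not describe whole chromosomes. The part of a shift along whole chromosomes in the members' differences was not tested.

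Some members lie close together in the genome. Of 12 pairs of successive members with at most 20 protein-coding genes between them, 11 had the same sign. Among all named genes 62.6% of 29628 pairs within that limit did. These were all pairs rather than successive genes only, so the shares are not counted alike. The 12 pairs hold only 21 genes, since some genes stand in more than 1 pair, and genes of a chromosome with a one-sided table share a sign more often, so nothing particular to the members is read from this. *Usp30* and *Ube3b*, with 6 genes between them on chromosome 5, both rose (0.66 and 0.67), and *Usp4* and *Usp19*, with 6 genes between them on chromosome 9, both fell (-0.66 and -0.63). *Psme1* and *Psme2*, with 1 gene between them on chromosome 14, were both higher. The exception was *Fbxo36* (0.95) and *Psmd1* (-0.33) on chromosome 1, with 16 genes between them.

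**Figure D3:**
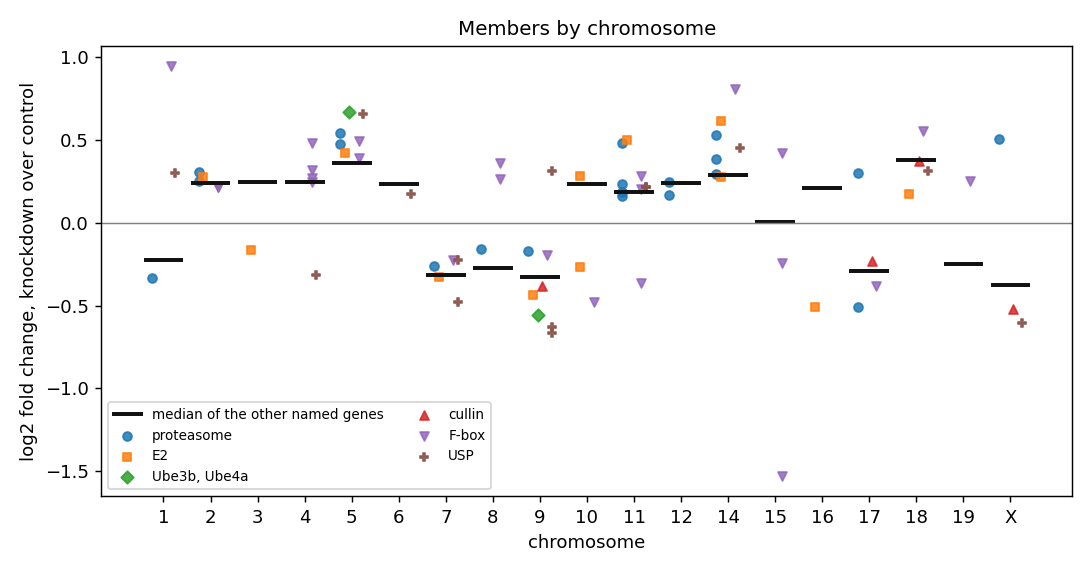
Log2 fold changes, knockdown over scrambled control, of the 76 members by the chromosome of the gene's record, with a symbol for each family. Black bars are the median of the other named genes of the table on that chromosome. Members of chromosomes 5, 14 and 18 all lie above zero with their bar, and 7 of 8 on chromosome 9 and all 5 on chromosome 7 lie below zero with theirs.

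For 8 members more than 1 transcript cluster was on the table, and for 7 of these the clusters had the same sign. The exception was *Fbxo31*, a subunit that marks cyclin D1. The transcript cluster used had 761, 842 and 785 in the knockdown, against 638, 636 and 582 in the control (log2 fold change 0.36). The other had 344, 368 and 363 in the knockdown, against 569, 493 and 523 in the control (-0.56, past the limit). The direction of *Fbxo31* therefore depends on the transcript cluster read. Clusters of *Ube2q2* were nearly alike in the knockdown, with 282, 338 and 330 on that used and 284, 328 and 325 on another. How far clusters of a gene read the same sequence was not tested, so the shared sign of the other 7 is no separate evidence.

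Other genes of the ubiquitin system on the table, from 9 lists, showed where partners of the members stood. Of 12 genes of neddylation and the COP9 signalosome, which switch cullin ligases on and off, 11 were higher and 3 rose. That is 25% changed, against 32.3% of all named genes, of which 50.3% were higher. *Nedd8*, the modifier that activates cullins, had 798, 763 and 781 in the knockdown, against 482, 522 and 481 in the control (0.66, SE 0.054). *Cops4* (0.55) and *Dcun1d4* (0.52) rose too, and *Cops6* (0.48), *Cops5* (0.42), *Gps1* (0.41) and *Rbx1* (0.30) were higher, with *Dcun1d2* (-0.35) alone lower. *Cops4*, *Dcun1d4* and *Cops6* lie on chromosome 5.

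Of 8 proteasome assembly and regulatory genes *Psmg2* rose, so 12.5% changed, against 32.3% of all named genes. *Psmg2*, a chaperone of the 20S alpha ring, had 1018, 1037 and 1125 in the knockdown, against 662, 647 and 589 in the control (0.75, SE 0.064), and lies on chromosome 18. Its partner *Psmg1* (0.42) and *Pomp* (0.42), which matures the beta ring, were higher without passing the limit. The list of ubiquitin genes and E1 enzymes had 3 genes on the table, none of them a ubiquitin or E1 gene. *Ubqln4* (-0.20), a ubiquilin, and *Ubtd2* (-0.20), which has a ubiquitin-like domain, were lower without passing the limit. *Ubqln2*, a shuttle that brings chains to the proteasome, had 3493, 3576 and 3529 in the knockdown, against 1650, 1543 and 1531 in the control. It rose by 1.17 on the log2 scale, more than any member, on the X chromosome, where 70.8% of the other named genes were lower.

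Of 23 further F-box genes and cullin adaptors 4 rose and 4 fell, 34.8% of them, against 32.3% of all named genes. *Klhl5* (0.96), *Btrc* (0.88), *Klhl24* (0.74) and *Klhl7* (0.58) rose. *Btrc*, a beta-TrCP gene like *Fbxw11*, had 1317, 1418 and 1386 in the knockdown, against 770, 732 and 742 in the control. *Socs2* (-1.72), a cullin-5 adaptor that limits growth hormone signals, *Skp2* (-0.68), the F-box protein that marks the cell cycle inhibitor p27, *Dtl* (-0.55), a cullin-4 adaptor of DNA replication, and *Klhl29* (-0.53) fell. *Socs2* had 380, 442 and 423 in the knockdown, against 1440, 1387 and 1271 in the control. *Skp2* had 440, 440 and 473 in the knockdown, against 747, 737 and 689 in the control.

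Of 15 other HECT and RBR ligases 3 rose (*Rnf14*, 0.85, *Hectd2*, 0.71, and *Hectd3*, 0.50) and 2 fell (*Herc2*, -0.60, and *Rnf217*, -0.50). Of 8 deubiquitinases outside the USPs *Otub2* (0.56) rose and *Otud4* (-0.72) fell. Of 7 genes of the anaphase-promoting complex *Anapc7* (0.63) rose. Of 7 genes of VCP, the ATPase that pulls ubiquitinated proteins from membranes, and its cofactors *Ubxn11* (0.52) rose while *Syvn1* (-0.56), the ligase of endoplasmic reticulum degradation, and *Ubxn8* (-0.55) fell. None of 8 genes of SUMO, UFM1 and ISG15 conjugation passed the fold limit, with *Pias4* (0.44) and *Senp1* (-0.36) farthest from zero. The changed shares were 33.3% for the ligases, 25% for the deubiquitinases, 14.3% for the anaphase-promoting complex and 42.9% for VCP. Of all named genes 32.3% changed.

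**Figure D4:**
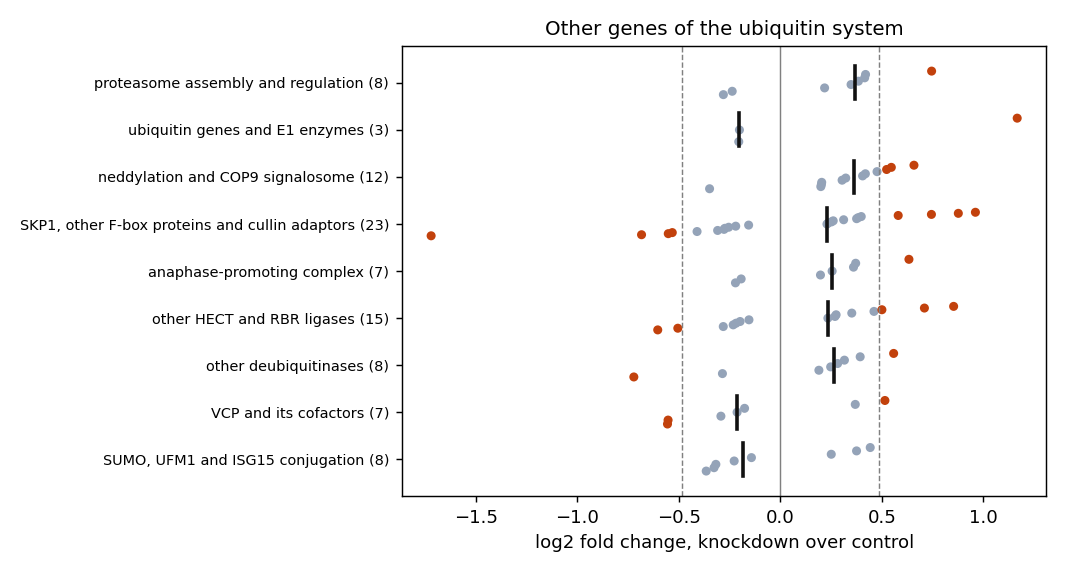
Log2 fold changes, knockdown over scrambled control, of the genes of 9 lists on the table, with the number of genes in brackets, a black bar at the list's median and dashed lines at the 1.4-fold limit; coloured points are past the limit. All but 1 of the 12 neddylation and COP9 signalosome genes lie above zero, and *Socs2* (-1.72) and *Ubqln2* (1.17) lie farthest from zero on the 2 sides. Of those 12 genes 25% are past the limit, against 32.3% of all named genes.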

How the data were processed

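RNA of 6 samples (3 *Kap1* knockdown, 3 scrambled control) was hybridised to 6 GeneChip Mouse Gene 1.0 ST arrays. The authors ran RMA in GeneSpring, and the deposited values are intensities on a linear scale. The table rounded to whole numbers was used, and its unrounded twin served as an alternative. The submitters' processing notes name limma. The array's build is not given in the sources read, and chromosomes, gene order and promoters come from RefSeq GRCm38.p6. Depth does not apply to arrays; their number limits the precision. Log2 intensities of all 6951 transcript clusters entered limma 3.58.1 (lmFit, then eBayes; R 4.3.3), knockdown minus control, with Benjamini-Hochberg adjustment over all of them. The fit was tested on simulated data in which most transcript clusters were unchanged. The deposited table is not like that, so the test does not vouch for the calls on it. Changed means adjusted p no higher than 0.05 with a 1.4-fold or larger difference. Named were all proteasome genes, all changed members, those nearest the fold limit or with the smallest difference in their class, a list of well-known members, and up to 4 changed genes of each of 9 pathway lists; further genes were named after their values were seen. Members and lists were chosen with earlier results of these data known. Counts used Python 3.11.15 with pandas 2.3.3. The alternatives were the unrounded table, a replicate block, median centring, quantile normalization, trend and robust eBayes, a filter at log2 6, a pseudocount of 16, a fold of 2, an adjusted p of 0.01, a log2 limit of 0.5, all transcript clusters of a gene, chromosome centring, and leaving out each array. The ChIP-seq data were not analysed here.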

Additional observations from a re-analysis of the deposited data

How the results depend on the processing

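All 76 members kept their direction in every refit of the transcript clusters used. Among these refits only median centring and quantile normalization could have turned a sign. The arrays of the groups did not overlap for any member, so leaving out an array could not, and the kept direction is no separate evidence. Of the 19 changed members 12 stayed past the 1.4-fold limit in all of these refits. Counting a gene by any of its transcript clusters gave 11 members that rose and 9 that fell, with *Fbxo31* (-0.56 on its other cluster) added on the lower side. At a fold of at least 2 no member rose and 1 fell (0 and 1), against 153 and 352 of all transcript clusters. Leaving out 1 array at a time gave 8 to 14 members that rose and 6 to 10 that fell, against 907 to 1202 and 1099 to 1337 of all transcript clusters. The sign turned after chromosome centring for *Fbxo42* (-0.0041), *Psmd3* (-0.0047), *Cul2* (-0.0051), *Ube2e1* (-0.0199), *Fbxw5* (-0.0223), *Fbxo3* (-0.0236), *Psmb6* (-0.0282), *Usp14* (-0.0622), *Usp18* (-0.0627), *Psma3* (-0.0739), *Ube2d2a* (-0.2015), *Psmc4* (0.0546), *Cul7* (0.0612), *Fbxo46* (0.0889), *Usp47* (0.0925), *Psmd7* (0.1175), *Fbxo9* (0.1383) and *Psma4* (0.1581), where the centring itself subtracts the chromosome's median; the cause of those medians was not tested. Same-numbered arrays of the groups deviated with correlations of -0.168, -0.132 and 0.042, and differently numbered arrays with -0.092 to 0.196. No pairing by number was visible in these values. With so few arrays per group, on a table selected for this comparison, the correlations cannot tell whether the numbers pair the samples. With the replicate number as a block 11 members rose and 8 fell, and 1043 and 1225 of all transcript clusters, the counts of the fit without it. In this balanced design a block leaves every fold change as it was. The counts could move only through the adjusted p, so their match says nothing about pairing. Signal over background was not given, which limits what can be said of dim genes such as *Fbxo32*.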

Other observations

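Some transcript clusters carried a member's symbol together with that of another gene and were left out of the counts above. The cluster shared by *Psme2b* and *Psme2*, near-identical copies of an 11S activator subunit, had 2524, 2329 and 2419 in the knockdown, against 1714, 1841 and 1523 in the control. Its log2 fold change was 0.52 (standard error 0.073, limma adjusted p = 0.000140), past the fold limit, where that of *Psme2* alone was 0.30. The cluster shared by *Ube2f*, the E2 that carries NEDD8 to cullin-5, and *Gm5434* had 791, 849 and 866 in the knockdown, against 669, 705 and 632 in the control (0.32). The cluster shared by *Usp49* and *Med20* had a log2 fold change of -0.22. The cluster shared by *Ube3a*, the ligase of Angelman syndrome, with 3 other genes had 868, 874 and 889 in the knockdown, against 1142, 997 and 1016 in the control (-0.26). Which of the named genes gives the signal of such a cluster was not tested.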
